A study of Mus musculus with 16 samples.

Results

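The solute carriers of family 25 are mostly transporters of the mitochondrial inner membrane, and their genes were followed here in mouse skeletal muscle. Members were all genes of the deposited table whose symbol starts with Slc25a, which gave 48 of 55487 genes. Of these, 41 had enough counts to be tested, among 17490 tested genes in all. RNA-seq compared 4 groups of 4 libraries: treadmill-trained mice labelled CHCHD4 Tg (Tg trained), untrained CHCHD4 Tg mice (Tg untrained), treadmill-trained wild-type mice (WT trained) and untrained wild-type mice (WT untrained). The muscle sampled, the strain, sex and age of the mice, the promoter of the transgene and the length of the training are not given in the sources used here. The labels do not tie libraries to individual mice, and the p-values therefore cover only library-to-library spread, which may be technical.

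Most family 25 proteins exchange nucleotides, phosphate, amino acids, acids of the citrate cycle and cofactors between the cytosol and the mitochondrial matrix. In muscle the best known are the ADP/ATP carrier, which exports newly made ATP, the phosphate carrier, which supplies ATP synthase, and the carriers of the malate-aspartate shuttle, which bring reducing equivalents into the matrix. The carriers are made in the cytosol and reach the inner membrane with the help of small chaperones of the intermembrane space (Timm8, Timm9, Timm10 and Timm13 proteins) and the TIM22 insertion machinery. CHCHD4, the protein the Tg mice are named for, oxidises cysteines of these small chaperones during their own import.

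Library totals ranged from 40888272 to 61703679 counts, and the Slc25a genes took between 0.206% and 0.294% of them. Chchd4, measured as the check of the genotype, lay between 18.1 and 22.2 CPM (counts scaled to library size and TMM factor) in the 8 Tg libraries and between 6.88 and 8.98 CPM in the 8 WT libraries. A single library stood apart. In WT untrained replicate 2, 8.11% of the tested genes lay more than 1.5-fold outside the other 3 libraries of the group, against 0.109% to 1.46% in the other libraries, and its scaling factor was 1.28 where the others reached 1.11 at most. The summed level of 6 general muscle fibre markers, mostly Ttn, was 96965 CPM there and between 126755 and 145282 CPM elsewhere. Each of these 6 markers of the labelled tissue had at least 25404 counts in every library. Because WT untrained replicate 2 stood apart, several results are also given without it. In tissue RNA of this kind, fewer cells of a type and less RNA per cell cannot be told apart.

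The promoters of 3 members are printed: Slc25a42 and Slc25a23, the members called between the genotypes, and Slc25a25, an abundant member whose level varied widely between libraries. The sequences are those of RefSeq for the build GRCm38.p6, with 5′ on the left, on the minus strand, and cover up to 250 bases before the annotated start of transcription, less any bases annotated as exon, which leaves 226 bases for Slc25a42 and 250 for the others. Positions are chr8:70212306-70212531 for Slc25a42, chr17:57059864-57060113 for Slc25a23 and chr2:32424067-32424316 for the innermost of the Slc25a25 starts. Capitals mark a GC box (GGGCGG, or CCGCCC on the other strand) and, in Slc25a25 alone among the 3, a full cAMP response element (TGACGTCA).
Slc25a42: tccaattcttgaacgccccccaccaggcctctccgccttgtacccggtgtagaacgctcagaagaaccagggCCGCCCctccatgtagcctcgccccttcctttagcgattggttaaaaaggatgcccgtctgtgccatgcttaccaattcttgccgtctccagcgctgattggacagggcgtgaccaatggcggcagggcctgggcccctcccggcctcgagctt
Slc25a23: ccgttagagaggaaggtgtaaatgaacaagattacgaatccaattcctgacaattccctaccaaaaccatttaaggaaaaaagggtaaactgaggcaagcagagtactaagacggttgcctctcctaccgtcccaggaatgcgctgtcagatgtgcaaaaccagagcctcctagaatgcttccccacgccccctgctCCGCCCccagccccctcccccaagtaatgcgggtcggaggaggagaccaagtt
Slc25a25: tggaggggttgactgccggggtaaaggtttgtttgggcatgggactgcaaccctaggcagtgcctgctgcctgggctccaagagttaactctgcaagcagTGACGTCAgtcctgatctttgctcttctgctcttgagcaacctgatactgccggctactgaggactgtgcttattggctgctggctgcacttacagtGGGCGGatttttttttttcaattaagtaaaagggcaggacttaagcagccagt

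The promoter table held 46 entries for 36 of the members, and 32 of the 46 windows (69.6%) contained a GC box, a sequence common in promoters without a TATA box, against 32.7% of all 32851 windows of the same length. The comparison windows were not limited to genes expressed here, and members with several entries count more than once. The full cAMP response element occurred in 2 of 46 member windows and in 1.55% of all windows. In Slc25a25 it lay 150 to 143 bases before the innermost start, and the windows of its other starts did not contain it. Both strands were also searched for its half-site TGACG (11 of 46 windows, against 17.8% of all), the canonical E-box CACGTG (8 of 46, against 6.02%), the myogenic E-box CAGCTG (4 of 46, against 13.0%), the nuclear receptor half-site AGGTCA (4 of 46, against 14.0%), the NRF1 element (GCGC, any base, then TGCGC; 2 of 46, against 3.74%) and the estrogen-related receptor element TCAAGGTCA (0 of 46, against 0.387%). Half-sites lie within their full elements, and a match describes only the letters of the window. None of the 3 printed windows was set against binding data here.

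Levels per length put one carrier far above the rest. In TPM (counts per kilobase of exon union, scaled to the same total in each library), Slc25a4, the ADP/ATP carrier isoform of heart and skeletal muscle, averaged 1127 TPM over the 16 libraries and made up 73.9% of the summed TPM of all members. Slc25a11, the oxoglutarate-malate exchanger of the malate-aspartate shuttle, followed at 87.1 TPM, Slc25a3, the phosphate carrier, at 82.0 TPM and Slc25a12, the aspartate-glutamate exchanger of the same shuttle, at 59.4 TPM. The ranges of Slc25a4 and Slc25a11 over the 16 libraries did not overlap, and neither did those of Slc25a12 and the member after it, whereas Slc25a11 and Slc25a3 overlapped and exchanged rank in 3 libraries. These 4 genes made up 88.9% of the summed TPM of the members. Their exon unions measured 2353 bases (Slc25a4), 2120 (Slc25a11), 5550 (Slc25a3) and 7342 (Slc25a12). A union holds every annotated exon, whether or not muscle uses it, so the order and the shares depend on these lengths. In counts Slc25a3 stood above Slc25a11, at 8500 to 17719 per library against 3050 to 7153.

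After them came Slc25a25, a calcium-regulated exchanger of ATP-Mg for phosphate, at 23.7 TPM, and Slc25a5, the ADP/ATP carrier isoform of many other tissues, at 21 TPM, whose ranges overlapped. Slc25a20, which exchanges carnitine for acylcarnitines in fatty acid oxidation, averaged 12.1 TPM, Slc25a51, the NAD carrier, 11.2 TPM, Slc25a39, a glutathione carrier, 10.2 TPM, and Slc25a46, an outer-membrane member with a role in mitochondrial shape, 8.6 TPM. Each of these overlapped its neighbour in rank. In all, 1 member reached 100 TPM, 8 lay between 10 and 100 TPM, 23 between 1 and 10 TPM and 16 under 1 TPM. Slc25a42 and Slc25a23 stood in the middle of the order, at 2.59 and 2.13 TPM.

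**Figure D1:**
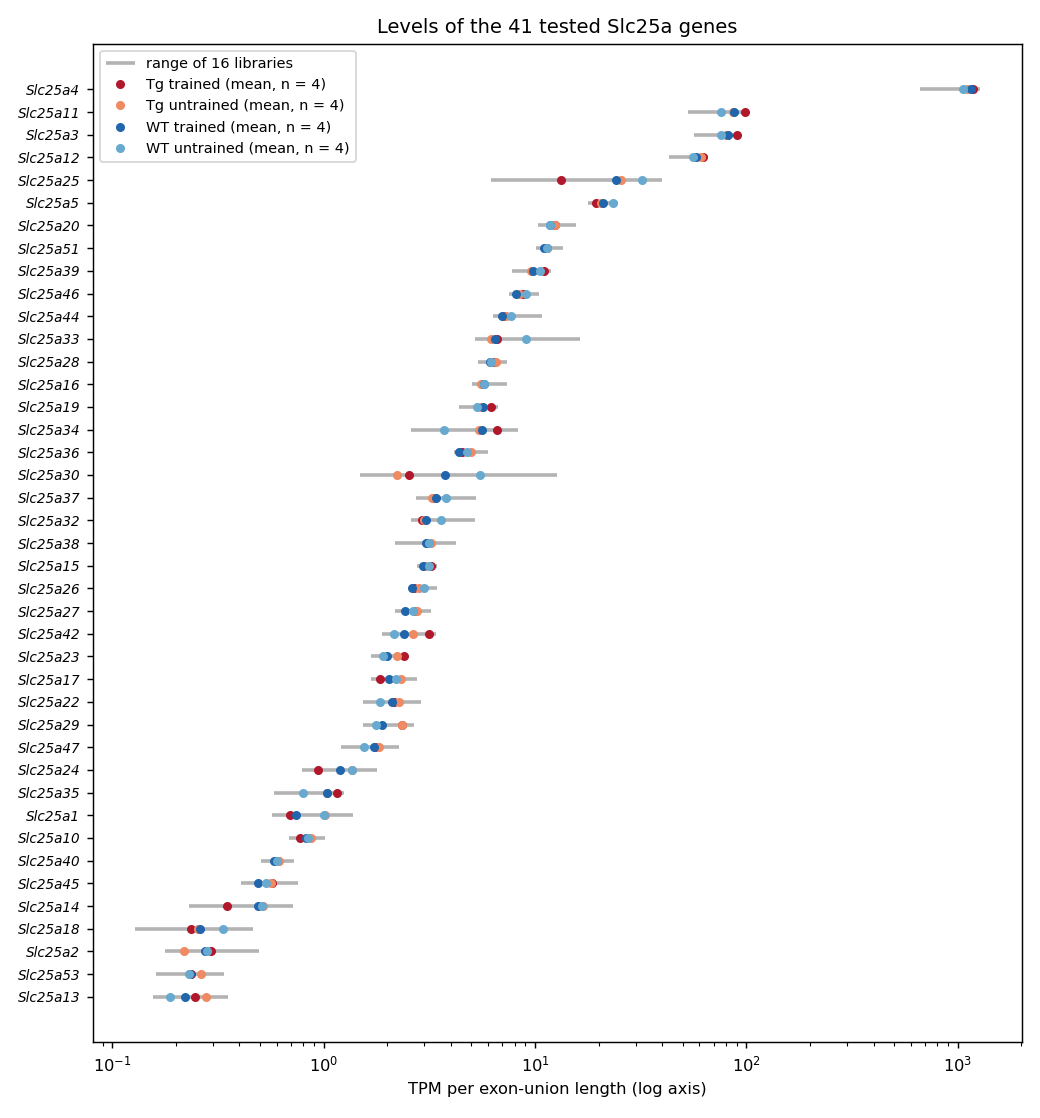
Level of each tested Slc25a gene in TPM per exon-union length on a log axis, with the range of the 16 libraries as a grey line and the 4 group means as dots. Slc25a4 lies more than a step of the axis above Slc25a11, Slc25a3 and Slc25a12, and for most members the group means lie close together within the range.

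Within the family, related carriers differed in level to unequal degrees. Slc25a4 was between 48.6 and 65.9 times as high as Slc25a5 in TPM in 15 libraries and 26.7 times as high in WT untrained replicate 2. Slc25a12 averaged 59.4 TPM where Slc25a13, the isoform of liver and kidney, averaged 0.233 TPM. The iron importers Slc25a28 and Slc25a37 averaged 6.32 and 3.45 TPM, and the glutathione carriers Slc25a39 and Slc25a40 averaged 10.2 and 0.603 TPM.

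The 7 untested members had at most 5 counts in any library. Slc25a31, the ADP/ATP carrier of germ cells, had 11 counts over all 16 libraries, Slc25a21, the oxoadipate carrier of lysine breakdown, had 31, Slc25a43 had 32 and the pseudogene Slc25a5-ps had 33. Slc25a41, Slc25a48 and Slc25a54 had 2, 4 and 3 counts. At these totals no difference between the groups was detectable.

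Genotype, averaged over both training states, gave the only called differences among the members in the 7 contrasts tested. Slc25a42, whose human protein carries coenzyme A into the matrix in exchange for adenine nucleotides, and Slc25a23, another calcium-regulated exchanger of ATP-Mg for phosphate, were higher in Tg muscle, by 1.28-fold and 1.19-fold. Of the 41 members 2 were called, both higher, which is 4.88% where 0.617% of all tested genes were called higher and 1.12% were called in either direction. Calls were made in edgeR's quasi-likelihood test at an adjusted p (Benjamini-Hochberg, over every tested gene) below 0.05. No member was called lower, where 0.503% of all genes were, and 9 members had an unadjusted p under 0.05 (22%, against 17.2%). Without WT untrained replicate 2 there were 7 such members, near the share of all genes (17.1%, against 17.8%). The median log2 fold change (log2FC) of the 41 members was 0.03, against 0.00 for all tested genes, and without WT untrained replicate 2 it was 0.02.

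Slc25a42 (GRCm38 chromosome 8, 70184340 to 70212305) measured 10.6, 12.8, 10.9 and 11.9 CPM in Tg trained libraries and 8.25, 9.15, 8.37 and 11.3 CPM in Tg untrained libraries. It measured 9.47, 7.99, 10.2 and 7.93 CPM in WT trained libraries and 7.05, 6.75, 7.62 and 8.06 CPM in WT untrained libraries. Every Tg library thus lay above every WT library of the same training state, while Tg untrained and WT trained libraries overlapped. The group means were 11.5 ± 0.991 CPM in Tg trained, 9.26 ± 1.41 in Tg untrained, 8.90 ± 1.13 in WT trained and 7.37 ± 0.580 in WT untrained muscle (SD, n = 4). The log2FC averaged over training was 0.35 (SE 0.077, edgeR adjusted p = 0.0362). With training it was 0.38 (SE 0.108, adjusted p = 0.367) and without training 0.33 (SE 0.109, adjusted p = 0.161), neither of them called.

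Slc25a23 (chromosome 17, 57043711 to 57059863) measured 7.71, 8.03, 7.36 and 7.88 CPM in Tg trained libraries and 7.20, 7.0, 6.50 and 6.77 CPM in Tg untrained libraries. In WT trained libraries it measured 7.07, 6.72, 6.23 and 6.06 CPM, and in WT untrained libraries 5.53, 5.69, 6.53 and 5.42 CPM. Tg and WT libraries did not overlap with training. Without training a single WT library, replicate 3, lay just above the lowest Tg library. The log2FC averaged over training was 0.25 (SE 0.051, edgeR adjusted p = 0.0275), and it was 0.25 both with training (SE 0.072, adjusted p = 0.367) and without it (SE 0.072, adjusted p = 0.119). The antisense neighbour that shares exon bases with Slc25a23, Gm17168, had at most 1 count in a library, against 238 to 458 counts for Slc25a23.

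Both calls lay close to the threshold. Slc25a42 was not called without Tg trained replicate 2 (edgeR adjusted p = 0.0771), 3 (0.0618) or 4 (0.0899), Tg untrained replicate 2 (0.0651) or 4 (0.0538), WT trained replicate 4 (0.0695), or WT untrained replicate 1 (0.0633) or 3 (0.0522). Slc25a23 was not called without Tg trained replicate 2 (adjusted p = 0.0611) or 4 (0.0694), Tg untrained replicate 1 (0.0626) or 2 (0.0555), WT trained replicate 3 (0.0655) or 4 (0.0565), or WT untrained replicate 1 (0.0530). The log2FC itself stayed between 0.30 and 0.39 for Slc25a42 and between 0.23 and 0.28 for Slc25a23 over the 16 libraries left out singly. Without WT untrained replicate 2 both were called, at adjusted p of 0.0369 and 0.0259. Without the 3 libraries above 10 CPM of the liver transcript Alb neither was (adjusted p = 0.0840 and 0.0705), and without the 4 libraries above 10 CPM of the slow fibre myosin Myh7 Slc25a42 was called (0.0430) and Slc25a23 was not (0.0881).

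**Figure D2:**
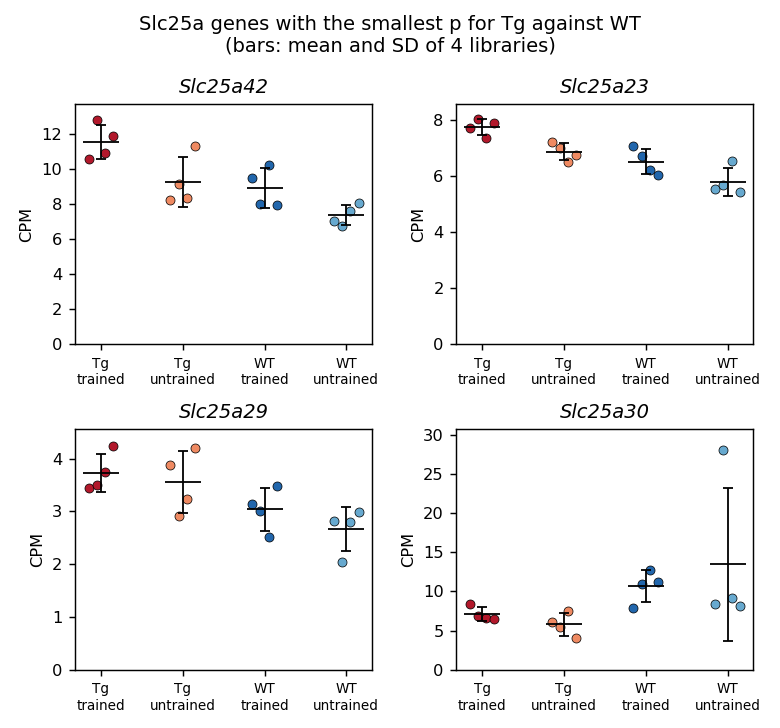
CPM of Slc25a42, Slc25a23, Slc25a29 and Slc25a30 in each library of the 4 groups, with the mean and SD of 4 libraries as bars. Slc25a42 lies between 10.6 and 12.8 CPM in Tg trained libraries and between 7.93 and 10.2 CPM in WT trained libraries, and a single WT untrained library reaches 28.1 CPM of Slc25a30.

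Slc25a30, a relative of the uncoupling proteins, had the largest averaged log2FC of the 41 tested members between the genotypes but was not called. It measured 8.37, 6.86, 6.65 and 6.45 CPM in Tg trained and 6.12, 5.45, 7.52 and 4.08 CPM in Tg untrained libraries. WT trained libraries had 7.87, 11.0, 12.8 and 11.2 CPM, and WT untrained libraries 8.43, 28.1, 9.17 and 8.16 CPM. All Tg untrained libraries lay below all WT untrained libraries, and with training the groups overlapped through a single library on each side. The averaged log2FC was -0.91 (SE 0.235, edgeR adjusted p = 0.0682). Without WT untrained replicate 2, the library at 28.1 CPM, it was -0.58 (SE 0.117) and was called, at an adjusted p of 0.0210. Its averaged training log2FC was -0.03 (SE 0.235), and 0.30 (SE 0.118, adjusted p = 0.233) without the same library.

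Slc25a29, a carrier of basic amino acids such as arginine and lysine, measured 3.44, 3.51, 3.74 and 4.23 CPM in Tg trained and 3.87, 2.91, 3.23 and 4.21 CPM in Tg untrained libraries. WT trained libraries had 3.14, 3.01, 2.51 and 3.48 CPM, and WT untrained libraries 2.82, 2.04, 2.81 and 2.98 CPM. The groups overlapped at both training states, and the averaged log2FC of 0.36 (SE 0.10) was not called in edgeR (adjusted p = 0.0856). Slc25a5, the ADP/ATP carrier isoform also found in many other tissues, measured 21.5, 19.5, 18.0 and 18.8 CPM in Tg trained and 20.2, 19.6, 18.3 and 20.3 CPM in Tg untrained libraries, against 20.7, 18.8, 23.9 and 22.3 CPM in WT trained and 21.9, 19.6, 24.0 and 22.8 CPM in WT untrained libraries. Its groups overlapped, with an averaged log2FC of -0.16 (SE 0.057, adjusted p = 0.171). The muscle isoform Slc25a4 had an averaged log2FC of 0.03 (SE 0.133, adjusted p = 0.932), whose sign turned to -0.08 (SE 0.050, adjusted p = 0.459) without WT untrained replicate 2.

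Slc25a25 varied widely between libraries and was not called in any of the 7 contrasts. Tg trained libraries had 101, 60.6, 29.7 and 62.1 CPM and Tg untrained libraries 98.1, 72.5, 128 and 163 CPM. WT trained libraries had 102, 70.9, 168 and 131 CPM and WT untrained libraries 137, 151, 123 and 161 CPM. Tg trained libraries all lay below WT untrained ones, a pair that differs in both genotype and training, and every other pair of groups overlapped. For Tg against WT with training the log2FC was -0.89 (SE 0.317, edgeR adjusted p = 0.469), and averaged over both training states it was -0.60 (SE 0.223, adjusted p = 0.180). The opposite-strand neighbour Naif1, which shares exon bases with Slc25a25, had 87 to 170 counts where Slc25a25 had 1509 to 8928.

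At each training state alone, 0 of 41 members were called between the genotypes. With training, 0.0114% of all tested genes were called, and 4 members had an unadjusted p under 0.05 (9.76%, against 7.98% of all genes), or 6 (14.6%, against 11.5%) without WT untrained replicate 2. Without training 0.743% of all genes were called, and 9 members had an unadjusted p under 0.05 (22%, against 16.2%). Without WT untrained replicate 2 there were 8 such members (19.5%, against 15.3%). By DESeq2, 0 members were called with training and 1, Slc25a30, without it. The CPM of Tg and WT groups did not overlap for 4 members with training, Slc25a42, Slc25a11, Slc25a39 and Slc25a23, all higher in Tg (9.76%, against 2.94% of all genes higher and 2.76% lower, 5.69% in all). Without training they did not overlap for 2 members, Slc25a42, higher in Tg, and Slc25a30, lower in Tg (4.88%, against 4.33% of all genes higher and 4.16% lower, 8.49% in all).

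Other transcripts moved with the genotype in the same libraries. Myh2, the myosin of fast oxidative fibres, ranged from 786 to 1898 CPM in the 8 Tg libraries and from 127 to 697 CPM in the 8 WT libraries, with an averaged log2FC of 1.39 (SE 0.253, edgeR adjusted p = 0.0203), and was the only 1 of 6 fast fibre markers called. It was not called without Tg trained replicate 4 (log2FC 1.38, adjusted p = 0.0521). The summed fast fibre markers lay between 47957 and 59445 CPM in Tg and between 39565 and 62015 CPM in WT libraries. Of 7 slow fibre markers 0 were called. Their median log2FC was 0.34 averaged over training, 1.86 without training (6 of 7 positive, 5 with an unadjusted p under 0.05) and -0.82 with training (6 of 7 negative), with sums between 51.4 and 172 CPM in Tg and between 44.1 and 99.7 CPM in WT libraries. Of 5 endothelial markers 0 were called (median 0.19), with sums of 151 to 184 CPM in Tg and 113 to 162 CPM in WT libraries. All 5 were positive with an unadjusted p under 0.05. Of 6 macrophage markers 0 were called (median -0.79), with sums of 12.1 to 24.5 CPM in Tg and 11.8 to 39.2 CPM in WT libraries. All 6 were negative, 4 with an unadjusted p under 0.05. Of all genes 17.2% had such a p. All 5 Schwann cell and all 6 erythroid markers were positive (medians 0.46 and 0.17), and 0 were called. The part of fibre type or of these cell types in the levels of Slc25a42 and Slc25a23 was not tested.

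Training, averaged over both genotypes, left 0 of 41 members called, where 0.457% of all tested genes were called. By DESeq2 1 member, Slc25a42, was called. At an unadjusted p under 0.05 there were 11 members (26.8%, against 14.4% of all genes), and 28 of 41 had a positive log2FC (68.3%, against 50.5% of all genes), with a median of 0.06 against 0.00. Within Tg mice 0% of all genes and 0 members were called by edgeR, 8 members had an unadjusted p under 0.05 (19.5%, against 11.1%), and DESeq2 called 132 genes and 0 members. Without WT untrained replicate 2, which enters through the shared estimate of spread, there were 14 such members (34.1%, against 15.9%), and edgeR called 93 genes. Within WT mice 0.143% of all genes and 0 members were called by either tool, and 4 members had an unadjusted p under 0.05 (9.76%, against 9.55%). Without WT untrained replicate 2 there were 3 such members (7.32%, against 9.08%).

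**Figure D3:**
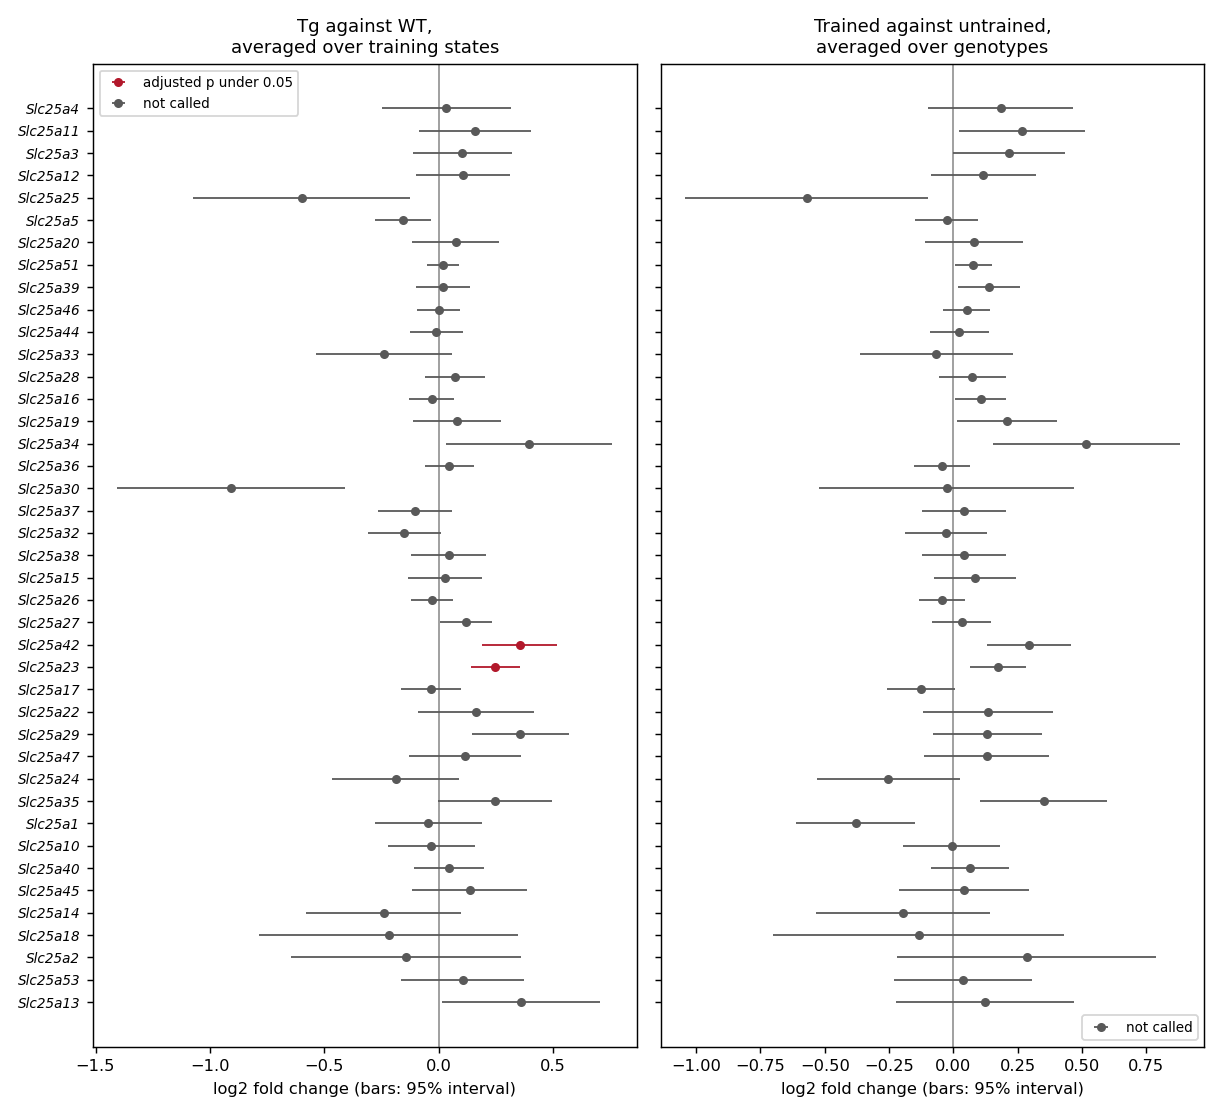
Log2 fold change of each tested Slc25a gene, ordered by TPM, for Tg against WT averaged over training states and for trained against untrained averaged over genotypes, with 95% intervals as bars. Slc25a42 and Slc25a23 are called (red) for the genotype at 0.35 and 0.25, and none is called for training.

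The member with the smallest p for averaged training was Slc25a42, with an averaged log2FC of 0.29 (SE 0.077, edgeR adjusted p = 0.104). Its training log2FC was 0.32 (SE 0.107) in Tg and 0.27 (SE 0.110) in WT mice, with overlap between trained and untrained libraries in each genotype. The log2FC was 0.34 and called without Tg untrained replicate 4 (adjusted p = 0.0322) and 0.32 and called without WT trained replicate 4 (adjusted p = 0.0463). Slc25a23 had an averaged training log2FC of 0.17 (SE 0.051, adjusted p = 0.140), at 0.17 in each genotype. In Tg mice its trained libraries (7.36 to 8.03 CPM) all lay above the untrained ones (6.50 to 7.20 CPM), whereas in WT mice trained libraries at 6.06 to 7.07 CPM overlapped untrained ones at 5.42 to 6.53 CPM.

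The 4 most abundant carriers had positive training log2FC that were not called and that shrank without a single library, while the next 2, Slc25a25 and Slc25a5, had negative ones (-0.57 and -0.03, adjusted p = 0.261 and 0.873). Slc25a4 measured 1678, 1698, 1694 and 1746 CPM in Tg trained and 1527, 1486, 1324 and 1730.2 CPM in Tg untrained libraries, and 1791, 1695, 1701 and 1551 CPM in WT trained and 1671, 747, 1718 and 1733 CPM in WT untrained libraries. Trained and untrained libraries overlapped in both genotypes, and the low value of 747 CPM belonged to WT untrained replicate 2. The averaged training log2FC of Slc25a4 was 0.18 (SE 0.133, edgeR adjusted p = 0.556), and 0.07 (SE 0.050, adjusted p = 0.546) without that library. In the same contrast all 6 muscle fibre markers and all 6 fast fibre markers had a positive log2FC (medians 0.13 and 0.09) and 0 were called. The muscle fibre markers summed to 133559 to 145282 CPM in trained and 96965 to 143117 CPM in untrained libraries. All 6 tendon and cartilage and all 5 fibroblast markers had a negative log2FC (medians -1.04 and -0.32). Of these 5 and 3 had an unadjusted p under 0.05, and 0 were called. The part of all these markers in the carriers' values was not tested.

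Slc25a11 kept trained and untrained libraries apart in both genotypes but was not called either. It measured 123, 125, 132 and 129.9 CPM in Tg trained and 110.5, 110.1, 86.0 and 119.6 CPM in Tg untrained libraries. WT trained libraries had 121, 111, 116 and 111 CPM and WT untrained libraries 109, 54.2, 108 and 109 CPM. The highest untrained library in Tg mice (119.6 CPM) lay just below the lowest trained one (123 CPM). The averaged training log2FC was 0.27 (SE 0.115, edgeR adjusted p = 0.305), and 0.17 (SE 0.054, adjusted p = 0.147) without WT untrained replicate 2. Rnf167, which shares exon bases with Slc25a11 on the opposite strand, had 530 to 930 counts, against 3050 to 7153 for Slc25a11.

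For the phosphate carrier Slc25a3, trained and untrained libraries separated in Tg mice, at 299, 311, 302 and 313 CPM with training and 261, 262, 225 and 292 CPM without. In WT mice they overlapped, at 277, 274, 305 and 269 CPM with training and 272, 151, 284 and 274 CPM without. Its averaged training log2FC was 0.22 (SE 0.103, edgeR adjusted p = 0.352), and 0.12 (SE 0.047, adjusted p = 0.207) without WT untrained replicate 2. The aspartate-glutamate exchanger Slc25a12 overlapped in both genotypes. It measured 273, 284, 270.4 and 296 CPM in Tg trained and 267, 254, 235 and 289 CPM in Tg untrained libraries, and 274, 255, 268 and 256 CPM in WT trained and 266, 152, 278 and 267 CPM in WT untrained libraries. Its averaged log2FC was 0.12 (SE 0.097, adjusted p = 0.613), and 0.03 (SE 0.041, adjusted p = 0.799) without that library. It turned to -0.0190 (SE 0.039, adjusted p = 0.899) without the 4 libraries above 10 CPM of Myh7.

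**Figure D4:**
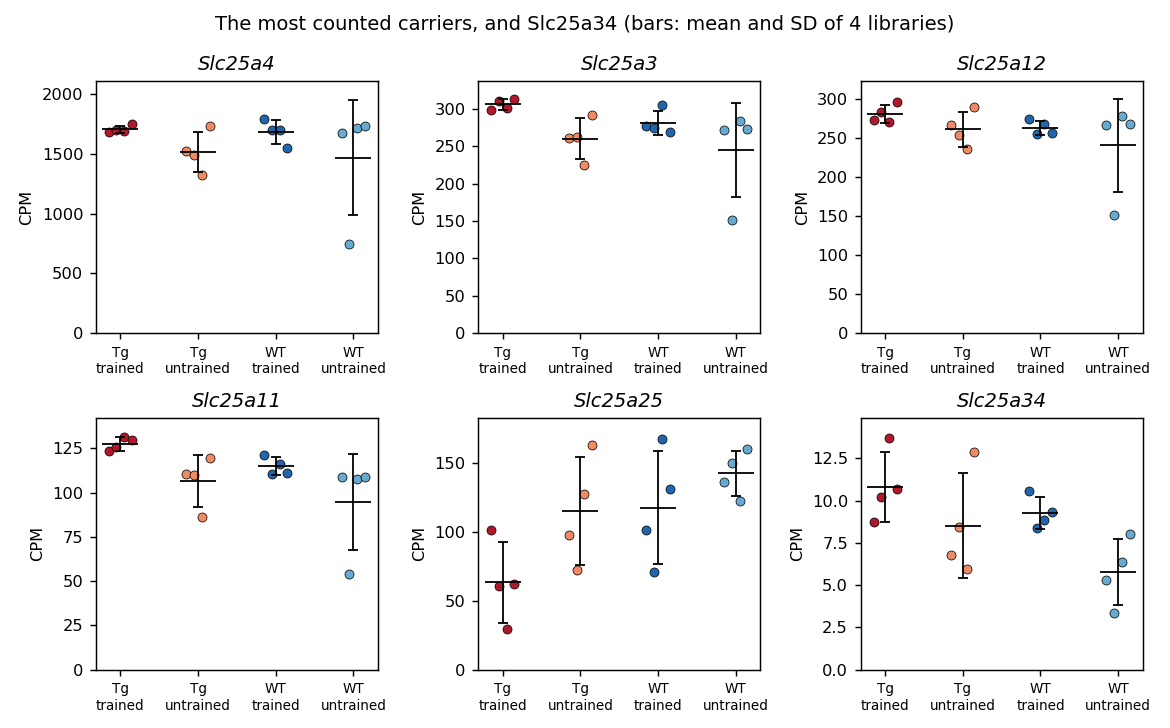
CPM of the 4 most abundant Slc25a genes, Slc25a25 and Slc25a34 in each library, with the mean and SD of 4 libraries as bars. In WT untrained muscle 1 library lies far below the other 3 for Slc25a4 (747 CPM), Slc25a3 (151 CPM), Slc25a12 (152 CPM) and Slc25a11 (54.2 CPM).

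Among the less abundant members, Slc25a34 and Slc25a35, related carriers without a settled substrate, were nominally higher with training. Slc25a34 measured 8.72, 10.2, 13.7 and 10.7 CPM in Tg trained and 6.78, 8.46, 5.97 and 12.9 CPM in Tg untrained libraries, which overlapped. It measured 10.5, 8.36, 8.88 and 9.34 CPM in WT trained and 5.31, 3.34, 6.39 and 8.04 CPM in WT untrained libraries, which did not. Its averaged training log2FC was 0.52 (SE 0.171, edgeR adjusted p = 0.187). The values of Slc25a35 were 2.38, 2.63, 2.54 and 2.82 CPM in Tg trained and 2.01, 2.27, 2.14 and 2.40 CPM in Tg untrained libraries, and 2.73, 2.39, 2.02 and 2.33 CPM in WT trained and 1.84, 1.03, 2.03 and 1.99 CPM in WT untrained libraries. A single library overlapped in each genotype, and the averaged log2FC was 0.35 (SE 0.117, adjusted p = 0.189). Rangrf, which shares exon bases with Slc25a35 on the opposite strand, had 463 to 807 counts, against 58 to 150 for Slc25a35, so the division of reads between these genes is uncertain.

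Slc25a1, the citrate exporter that feeds fatty acid synthesis, was nominally lower with training, at 34 to 81 counts per library. It measured 0.837, 0.772, 1.16 and 0.893 CPM in Tg trained and 1.42, 1.13, 1.33 and 1.17 CPM in Tg untrained libraries. WT trained libraries had 0.986, 0.926, 0.890 and 1.19 CPM and WT untrained libraries 1.24, 1.44, 1.2 and 1.03 CPM. The groups overlapped through 1 trained library in each genotype, and the averaged log2FC was -0.38 (SE 0.110, edgeR adjusted p = 0.135). Adipocyte markers moved the same way in these libraries, with 5 of 8 called lower with training (median log2FC -1.91). The count was 5 or 6 without Tg trained replicate 3, Tg untrained replicate 4, WT trained replicate 4 or WT untrained replicate 2, and 1 to 3 without any other single library. The markers had summed levels of 242 to 452 CPM in trained and 325 to 389 CPM in untrained libraries. Most of these counts came from Plin4 (8312 to 18248 per library) and Fabp4 (2423 to 4198). Adipoq, Lep and Cidec reached at most 473, 459 and 344 counts, so the sums hardly reflect them. The part of the adipocyte markers in the level of Slc25a1 was not tested.

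In Tg mice alone, the groups did not overlap between training states for 5 members (12.2%, against 4.65% of all genes higher and 4.53% lower, 9.18% in all). Slc25a11, Slc25a3, Slc25a23 and Slc25a51 were higher and Slc25a24, a calcium-regulated exchanger of ATP-Mg for phosphate that is named here after its values were seen, was lower. Slc25a51 had 36.8, 40.0, 36.8 and 39.5 CPM in Tg trained and 36.7, 35.2, 35.9 and 36.1 CPM in Tg untrained libraries, a log2FC of 0.09 (SE 0.047, edgeR adjusted p = 0.507). In WT mice it overlapped, at 37.7, 37.6, 39.0 and 35.6 CPM with training and 35.9, 35.8, 36.4 and 35.1 CPM without. Slc25a24 had 2.21, 1.68, 2.26 and 1.75 CPM in Tg trained and 2.45, 2.38, 3.14 and 2.73 CPM in Tg untrained libraries, a log2FC of -0.44 (SE 0.186, adjusted p = 0.402). Other transcripts moved in the same contrast of Tg mice, where 0 genes were called. All 7 slow fibre markers had an unadjusted p under 0.05, 6 of them lower with training (median log2FC -1.63), with sums of 54.2 to 80.1 CPM in Tg trained and 51.4 to 172 CPM in Tg untrained libraries. All 8 adipocyte markers had a negative log2FC (median -2.34). Their sums, mostly Plin4 and Fabp4, were 242 to 281 CPM in Tg trained and 325 to 389 CPM in Tg untrained libraries. Of 6 macrophage markers 5 had a negative log2FC (median -0.67), with sums of 12.1 to 17.5 CPM in Tg trained and 13.8 to 24.5 CPM in Tg untrained libraries. All 6 tendon and cartilage, all 5 Schwann cell and all 5 fibroblast markers were negative too (medians -0.84, -0.42 and -0.23). All 6 muscle fibre markers were positive (median 0.10). The part of all these markers in the levels of the 5 members was not tested. In WT mice 2 members did not overlap, Slc25a11 and Slc25a34, both higher with training (4.88%, against 2.36% of all genes higher and 2.03% lower, 4.39% in all).

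The smallest p for training in Tg mice belonged to Slc25a39, with 18.7, 18.8, 18.0 and 18.5 CPM in Tg trained and 15.6, 13.6, 13.9 and 18.3 CPM in Tg untrained libraries. A single untrained library reached the trained range, and the log2FC was 0.27 (SE 0.080, edgeR adjusted p = 0.238). In WT mice Slc25a39 measured 16.8, 16.8, 16.2 and 16.8 CPM with training and 15.6, 15.7, 16.7 and 18.2 CPM without, a log2FC of 0.01 (SE 0.080). Slc25a17, the carrier of peroxisomes for coenzyme A and related cofactors, had 2.86, 3.14, 3.29 and 3.53 CPM in Tg trained and 4.03, 3.46, 4.01 and 3.82 CPM in Tg untrained libraries, a log2FC of -0.26 (SE 0.088, adjusted p = 0.298). In WT mice Slc25a17 measured 3.48, 3.40, 3.54 and 3.97 CPM with training and 3.72, 3.77, 3.37 and 3.46 CPM without, and the groups overlapped at a log2FC of 0.01 (SE 0.088).

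The difference of the training responses between Tg and WT mice was called for 0 of 41 members, where 0.0515% of all tested genes were called. By DESeq2 0 members were called as well, and 2 members had an unadjusted p under 0.05 (4.88%, against 6.03% of all genes). Without WT untrained replicate 2 there were 5 (12.2%, against 9.06%). For Slc25a42 the difference was 0.05 on the log2 scale with a 95% interval of -0.28 to 0.37, and for Slc25a23 it was 0.00 with an interval of -0.22 to 0.22. For Slc25a39 it was 0.26 (0.02 to 0.50, edgeR adjusted p = 0.795) and for Slc25a17 it was -0.26 (SE 0.124, adjusted p = 0.812). The intervals of Slc25a42 and Slc25a23 leave room for differences as large as their genotype effects or nearly so.

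Grouped by role, the 2 calls for the genotype fell in different lists. Of 5 tested adenine nucleotide carriers 1, Slc25a23, was called higher in Tg, 2 had a positive log2FC and the median was -0.16. Of 9 tested carriers of cofactors and nucleotides 1, Slc25a42, was called higher, with 4 positive and a median of -0.03. By edgeR, none of 9 amino acid carriers (6 positive, median 0.04), 3 carriers of dicarboxylates, tricarboxylates and keto acids (1 positive, median -0.03), 2 iron carriers, 2 glutathione carriers, 3 relatives of the uncoupling proteins (1 positive, median -0.24) or 6 other members was called. DESeq2 also called Slc25a29, an amino acid carrier (adjusted p = 0.0299), and Slc25a30, a relative of the uncoupling proteins (adjusted p = 0.00666). For averaged training edgeR called 0 members of any of these lists and DESeq2 called Slc25a42 (adjusted p = 0.0323). The amino acid carriers had 8 of 9 members with a positive log2FC (median 0.12), where 50.5% of all genes were positive.

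Some members at 6 to 12 TPM had overlapping Tg and WT libraries. Slc25a20, the acylcarnitine carrier, measured 34.2, 36.4, 38.9 and 37.6 CPM in Tg trained, 32.1, 34.4, 28.6 and 45.7 CPM in Tg untrained, 37.5, 31.9, 38.6 and 33.5 CPM in WT trained and 31.4, 26.8, 35.7 and 38.0 CPM in WT untrained libraries. All 4 groups overlapped, with an averaged log2FC of 0.07 in Tg (edgeR adjusted p = 0.714) and 0.08 with training (adjusted p = 0.716), the second of which was 0.03 without WT untrained replicate 2 and turned to -0.0595 without the 4 libraries above 10 CPM of Myh7. Slc25a28, an iron importer, measured 13.0, 14.5, 15.6 and 15.6 CPM in Tg trained, 15, 12.7, 12.5 and 16.7 CPM in Tg untrained, 14.3, 14.5, 14.9 and 13.3 CPM in WT trained and 13.1, 12.4, 13.9 and 13.8 CPM in WT untrained libraries. Slc25a46 measured 29.3, 30.9, 28.4 and 28.1 CPM in Tg trained, 27.3, 28.4, 23.9 and 26.2 CPM in Tg untrained, 26.8, 27.8, 29.1 and 26.1 CPM in WT trained and 29.3, 27.2, 29.4 and 26.8 CPM in WT untrained libraries. Tg and WT libraries overlapped for both genes. Their averaged log2FC in Tg were 0.07 (adjusted p = 0.592) and 0.00 (adjusted p = 0.995). With training Slc25a46 had a log2FC of 0.14 in Tg mice (SE 0.061, adjusted p = 0.410) and -0.04 in WT mice (SE 0.061, adjusted p = 0.875), and the averaged training log2FC of Slc25a28 was 0.07 (adjusted p = 0.618), or -0.0335 without the 4 Myh7-high libraries.

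The library that stood apart did so in the makeup of the family as well as in its total. The members summed to 1601 CPM in WT untrained replicate 2 and to 2793, 2859 and 2888 CPM in the other libraries of its group. Slc25a4 took 46.6% of the member counts there, against 57.1% to 61.5% in the other 15 libraries. Slc25a33, a pyrimidine nucleotide carrier also picked after its values were seen, was at 14.8 CPM there and between 5.98 and 8.93 CPM in the others. In that library Slc25a30 and Slc25a33 were thus above, and Slc25a4, Slc25a3, Slc25a12 and Slc25a11 below, all others.

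**Figure D5:**
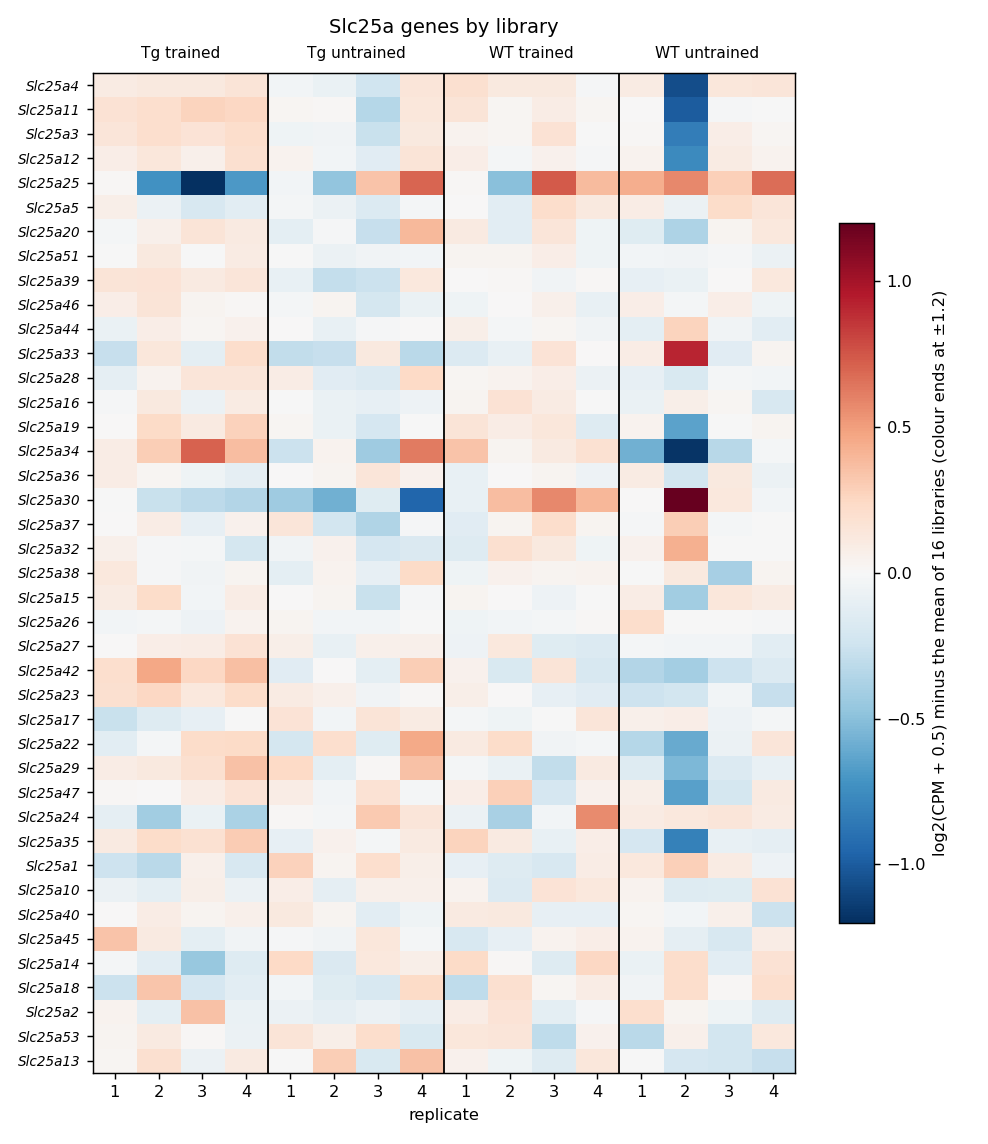
Level of each tested Slc25a gene in each library as log2(CPM + 0.5) minus its mean over the 16 libraries, with genes ordered by TPM. WT untrained replicate 2 forms a dark column for the abundant carriers and for Slc25a30, and Slc25a25 varies widely within groups.

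Carriers of the inner membrane outside the symbol rule were set beside the members. The uncoupling protein Ucp3, the family 25 protein of muscle named for uncoupling, fell in Tg muscle. It measured 61.8, 54.8, 44.9 and 57.3 CPM in Tg trained and 58.1, 61.3, 63.2 and 80.7 CPM in Tg untrained libraries, against 77.0, 72.6, 95.9 and 109 CPM in WT trained and 80.1, 86.2, 104 and 106 CPM in WT untrained libraries. Tg and WT libraries did not overlap with training, and without it 1 Tg library reached the lowest WT library, and the averaged log2FC was -0.61 (SE 0.101, edgeR adjusted p = 0.0142). Without the 4 libraries above 10 CPM of the slow myosin Myh7 it was -0.57 (SE 0.124) and missed the threshold (adjusted p = 0.0532). It was the 1 called of 4 tested family 25 genes under other symbols, and Ucp2 was not called (log2FC -0.22, adjusted p = 0.263).

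Of 7 tested pyruvate carriers and sideroflexins 0 were called for the genotype, with Sfxn2, which bears on mitochondrial iron, at 0.42 (SE 0.107, adjusted p = 0.0641). Of 10 tested genes of the carrier import pathway, among them Timm9, Timm10 and Timm22, 0 were called, with a median log2FC of -0.02. Agk, a subunit of the TIM22 machinery in human cells, had the smallest p among them, at a log2FC of 0.11 (SE 0.060, adjusted p = 0.387). For training 0 of 4, 0 of 7 and 0 of 10 genes of these lists were called.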

How the data were processed

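Total RNA of mouse skeletal muscle was sequenced in 16 libraries, 4 in each of the groups Tg trained, Tg untrained, WT trained and WT untrained. The authors deposited RSEM expected counts per gene, which are estimated counts with no normalization, and the submitters' processing notes name STAR 2.7.8a, RSEM 1.3.2 and mm10. The sources used here do not say whether counting used strand. From these values 12.5% were not whole and were rounded. Multi-mapped reads are shared out by RSEM, and 8 members, among them Slc25a5, Slc25a11, Slc25a12, Slc25a25 and Slc25a35, had fractional counts in every library, whereas Slc25a4 and Slc25a42 had none.

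Tests used the edgeR 4.0.16 quasi-likelihood test in R 4.3.3 with TMM scaling, a minimum count of 10 by group, and all 16 libraries in 1 fit. Each of the 7 contrasts was adjusted by Benjamini-Hochberg over 17490 genes, and a gene was called at an adjusted p under 0.05. Averaged contrasts give both training states, or both genotypes, equal weight. The biological coefficient of variation was 14.1%. Group values are mean ± SD of CPM. TPM used exon-union lengths of GENCODE M21, GRCm38. The members and lists were chosen with earlier results of these data known. Values per library are given for the members called, the 6 highest in TPM and the highest in CPM of each list by role. They are also given for the 10 members with the smallest unadjusted p over the 7 contrasts. Values of Slc25a24, Slc25a33 and Slc25a47 are given outside this rule. Lists of other genes are given by counts, with values for single genes such as Ucp3. The scripts were tested on simulated data. Alternatives were DESeq2 1.42.0, its size factors (RLE) in edgeR, no filter on low counts, the 8 libraries of a contrast alone, the replicate number as a block, each library left out, and 2 alternatives chosen after seeing the data: leaving out libraries above 10 CPM of Alb (liver albumin) or of Myh7 (slow myosin). Between 2 libraries of a group, chi-square over its degrees of freedom was at least 7.08, so no 2 libraries were counted as 1.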

Additional observations from a re-analysis of the deposited data

Results flagged for a closer look

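In 6 of 76 groups of 4 libraries examined, the gap of 1 library to its nearest neighbour exceeded Dixon's critical share of the range (0.829). Chance alone flags about 1 in 20 groups. In WT untrained replicate 2, Slc25a4 was at 746.8 CPM (1671 to 1733 CPM in the other 3 libraries), Slc25a3 at 151.1 CPM (272 to 284 CPM), Slc25a12 at 151.9 CPM (266 to 278 CPM), Slc25a11 at 54.2 CPM (108 to 109 CPM) and Slc25a30 at 28.1 CPM (8.16 to 9.17 CPM). The summed muscle fibre markers were also lowest in this library, at 96965 CPM, and their part in these values was not tested. In WT trained replicate 3, Slc25a39 was at 16.2 CPM and the other 3 libraries lay close together at 16.8 CPM.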

How the results depend on the processing

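The count of members called for Tg averaged over training (2) was 4 by DESeq2, 2 with RLE, 3 without the filter, 1 with the replicate block, 1 without the Alb-high (Slc25a29) and 2 without the Myh7-high libraries (Slc25a42 and Slc25a30), and 0 to 3 with 1 library left out. DESeq2 added Slc25a30 (adjusted p = 0.00666) and Slc25a29 (0.0299). With the replicate block Slc25a42 was not called (adjusted p = 0.0595) and Slc25a23 was (0.0493). Same-numbered libraries did not consistently deviate together (correlations -0.215 to 0.214, 9 of 24 above 0.1, own number the best match in 15 of 48). The number was therefore not used as a pairing in the main fit, although correlations this weak cannot exclude one. Members called numbered 1 by DESeq2 for Tg against WT without training, and for averaged training 1 by DESeq2, 1 without the Alb-high libraries (Slc25a24, -0.41, adjusted p = 0.0471) and 0 to 1 with 1 library left out. Without the Myh7-high libraries the averaged training log2FC of Slc25a12, Slc25a20 and Slc25a28 turned to -0.0190, -0.0595 and -0.0335, and the cause was not tested. That set includes WT untrained replicate 2. Leaving out this library alone already shrank the values of Slc25a12 and Slc25a20 and gave the call of Slc25a30 for averaged Tg. All genes called for averaged Tg (196) numbered 644 by DESeq2, 146 with the block and 29 to 374 with 1 library left out, for averaged training (80) 366, 16 and 15 to 389, for training in Tg (0) 132, 0 and 0 to 93, for training in WT (25) 68, 20 and 16 to 30, for Tg against WT without training (130) 442, 66 and 43 to 138, with training (2) 55, 1 and 1 to 16, and for the difference (9) 37, 7 and 6 to 12. Depth limits the 7 members with at most 5 counts in any library.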

Other observations

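By their gene bounds in GENCODE M21, Slc25a29 and Slc25a47, a carrier described mainly in liver, lie head to head on chromosome 12 (GRCm38, 108825873 to 108835883 on the minus strand and 108836046 to 108856815 on the plus strand). A RefSeq promoter window of Slc25a47, at 108850879 to 108851178, lies well inside these bounds, so the starts in use need not be adjacent. Slc25a47 ranged from 1.74 to 3.80 CPM over the 16 libraries. Alb, the liver transcript for albumin, exceeded 10 CPM in Tg untrained replicate 2 (15 CPM), WT trained replicate 4 (35.6 CPM) and WT untrained replicate 2 (14.9 CPM), in which Slc25a47 stood at 2.95, 3.14 and 1.74 CPM. Of 6 hepatocyte markers 1, Alb, passed the filter on low counts. Apoa1, Apoa2, Ttr, Serpina1a and Fgb did not, at 0 to 227, 0 to 71, 0 to 131, 0 to 130 and 0 to 132 counts per library.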
